A study of Mus musculus with 24 samples.

Results

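Type I interferon-stimulated genes are transcripts that cells raise when type I interferon reaches their surface, and most of their products act against viruses or tune the response itself. The values described here are those of 39 listed mouse genes of this kind in CD8 T cells, kept where the mean level over the 12 RNA libraries was at least 0.5 CPM (the counts-per-million scale, on library totals scaled by the TMM method of edgeR). The threshold left 32 of the 39 listed genes, out of 55401 genes in the table and 14749 tested. Oasl1, with a mean of 0.529 CPM, was just inside the threshold, and Oasl2, with 0.455 CPM, just outside. The other genes left out were Oas1a, Oas2, Ifit3b, Rsad2, Ifi44 and Ifi204, with means from 0.0943 to 0.235 CPM. Of the 32 genes kept, 28 averaged at least 0.5 CPM in every group, and 27 had at least 10 counts in every library. Ifit1 and Cmpk2 averaged under 0.5 CPM with Oxyrase, and Oasl1 and Rtp4 with Oxyrase and in pyruvate, so these 4 passed through the groups where they were higher.

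The CD8 T cells came from spleens and lymph nodes of C57BL/6J mice and were purified with magnetic beads. All cells were activated in culture for 3 days with anti-CD28 antibody and interleukin 2. From day 2 to day 3 they received 20 mM NaCl, sodium pyruvate or sodium lactate, or 20 mM sodium lactate together with Oxyrase, an enzyme preparation from bacterial membranes that consumes oxygen in the medium, at a dose not given in the sources used here. RNA-seq gave transcript levels, and ATAC-seq, where a transposase cuts open DNA, gave chromatin accessibility, with 3 libraries per group in each assay and 24 in all. Separate mice or cultures behind the 3 libraries of each group are not stated in the labels, so the p-values measure only how far these libraries spread. The series title names chromatin changes under pyruvate, lactate and hypoxia as the question. No group had Oxyrase without lactate, so the change on adding Oxyrase was read against lactate alone. Against NaCl or pyruvate this group differs by lactate as well as Oxyrase, and the parts of each cannot be told apart. In those comparisons "with Oxyrase" only names the group with lactate and Oxyrase. Libraries are named by group and number, and those with lactate and Oxyrase are called Oxyrase 1 to Oxyrase 3.

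As background, type I interferons bind the receptor formed by IFNAR1 and IFNAR2, and the kinases JAK1 and TYK2 then act on STAT2. With IRF9, STAT2 is part of the complex ISGF3, which enters the nucleus and binds the interferon-stimulated response element (ISRE), whose core is a repeat of GAAA. Interferon gamma, which activated CD8 T cells secrete, signals through another receptor and raises an overlapping set of genes, the interferon-induced GTPases among them. In CD8 T cells type I interferon is known to act beside antigen and costimulation during activation.

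RefSeq promoter sequences of GRCm38.p6, from 250 bases before to 50 bases after a start, were at hand for 23 of the 32 genes. The ISRE core GAAANNGAAA, searched on both strands, lay within the 250 bases before a start in 9 of these 23 genes (Bst2, Ifi203, Ifi213, Ifit1, Ifit3, Isg15, Oas3, Stat2 and Trim30a), against 2.98% of 32851 mouse promoters. Over all 300 bases of the sequence the count was 12 of 23 genes, against 3.44% of promoters. The gamma-activated site TTCNNNGAA, read on both strands and free to overlap the first motif, lay within the 250 bases in 4 of 23 genes (Bst2, Eif2ak2, Ifit2 and Isg20), against 7.02% of promoters. A match is a description of letters and says nothing of binding. The stretches printed are those of the 6 genes that hold the ISRE core before the start and whose overlapping ATAC peak passed the test in at least 1 comparison described further on. Each runs 5′ to 3′ on the strand of its gene, capitals mark every match of the ISRE core or its reverse complement, and positions count back from the start at -1. The start is the one its promoter entry uses; for Ifi203 and Ifi213 it lies inside the gene span given further on, and so do their matches.
Isg15: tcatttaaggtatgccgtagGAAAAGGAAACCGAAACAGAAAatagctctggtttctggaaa
Ifit1: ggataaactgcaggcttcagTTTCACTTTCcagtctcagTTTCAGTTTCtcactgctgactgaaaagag
Bst2: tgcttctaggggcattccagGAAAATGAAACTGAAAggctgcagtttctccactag
Stat2: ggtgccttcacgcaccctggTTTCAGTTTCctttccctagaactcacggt
Ifi203: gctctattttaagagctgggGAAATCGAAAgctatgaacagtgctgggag
Ifi213: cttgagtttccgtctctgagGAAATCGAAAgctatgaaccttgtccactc
The Isg15 stretch is chr4:156200855-156200916 (minus strand; matches from -78 to -57), with 3 overlapping matches in 1 block. The Ifit1 stretch is chr19:34640765-34640833 (plus strand; matches from -104 to -76) and holds 2 separate matches. For Bst2 the stretch is chr8:71537567-71537622 (minus strand; matches from -130 to -115), with 2 matches that overlap. The single match of Stat2 lies farther out, in chr10:128270256-128270305 (plus strand; matches from -222 to -213). Ifi203 in chr1:173942498-173942547 (minus strand; matches from -35 to -26) and Ifi213 in chr1:173599316-173599365 (minus strand; matches from -73 to -64) belong to the same gene cluster and share a run of 20 letters that includes the motif.

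RNA libraries held 26036286 to 39643682 counts and ATAC libraries 25308254 to 37074367 counts in 75802 peaks. The CD8 T cell markers Cd8a, Cd8b1, Cd3e, Cd3d and Trac summed to 1536 to 1545 CPM in NaCl, 1373 to 1409 in pyruvate, 1430 to 1508 in lactate and 1036 to 1094 in lactate with Oxyrase. Marker lists of other cells were low: the 4 B cell markers summed to at most 0.987 CPM and the 7 myeloid and dendritic markers to at most 1.63 CPM in any library. The 4 markers of plasmacytoid dendritic cells, the main makers of type I interferon, summed to 7.35 to 9.6 CPM, of which Tcf4, a gene T cells also express, made up 6.9 to 9.35 CPM. Of the others Klk1 was at 0 in all libraries and Siglech was above 0 in NaCl 2 alone (0.0304 CPM). In bulk RNA, fewer cells that express a gene and less RNA of it per cell cannot be told apart. Unless another scale is named, differences are log2 fold changes ± SE from 1 edgeR quasi-likelihood model of 12 libraries, with Benjamini-Hochberg adjustment of p across every tested gene or peak, and a gene is said to rise or fall only at an adjusted p under 0.05. The deposited RNA values carry signs of an adjustment for replicate number, which can make the spread within groups too small.

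Under pyruvate, interferon-stimulated transcripts were lower than in NaCl and none passed as higher. Of the 32 genes 17 fell and 0 rose, where 6.28% of all tested genes fell and 9.4% rose. The median difference of the 32 genes was -0.41, against 0.00 for all tested genes, and 28 of the 32 differences were below 0. Sizes ran from 1.19-fold lower for Irf9 to 4.96-fold lower for Oasl1. Oasl1, at 0.14 ± 0.112 CPM in pyruvate (SD, n = 3), and Rtp4, at 0.408 ± 0.204 CPM, are among the 17 and met the level threshold only through other groups. The 17 genes included all 3 signal factors, all 3 effectors of double-stranded RNA and 8 of 10 other antiviral genes, while none of the 3 IFIT, 3 macrodomain or 3 IFI200 genes passed. Among the signal factors and effectors, Irf7, Eif2ak2 and Oas3 kept their calls in 6 of 6 fits that left out 1 library. Stat2 and Irf9 kept theirs in 2 of 6 and Oasl1 in 3 of 6. Oasl2, left out by the level threshold, did not pass here (-0.57 ± 0.43, adjusted p = 0.402). The libraries of both groups did not overlap for 14 of the 17 genes. That count restates the values behind the calls, and no share over all tested genes is given for it. Single libraries bear on this count: 11 genes fell without NaCl 2, 9 without NaCl 3, and 10 without either pyruvate 2 or pyruvate 3, and 8 of the 17 calls held in every alternative run.

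**Figure D1:**
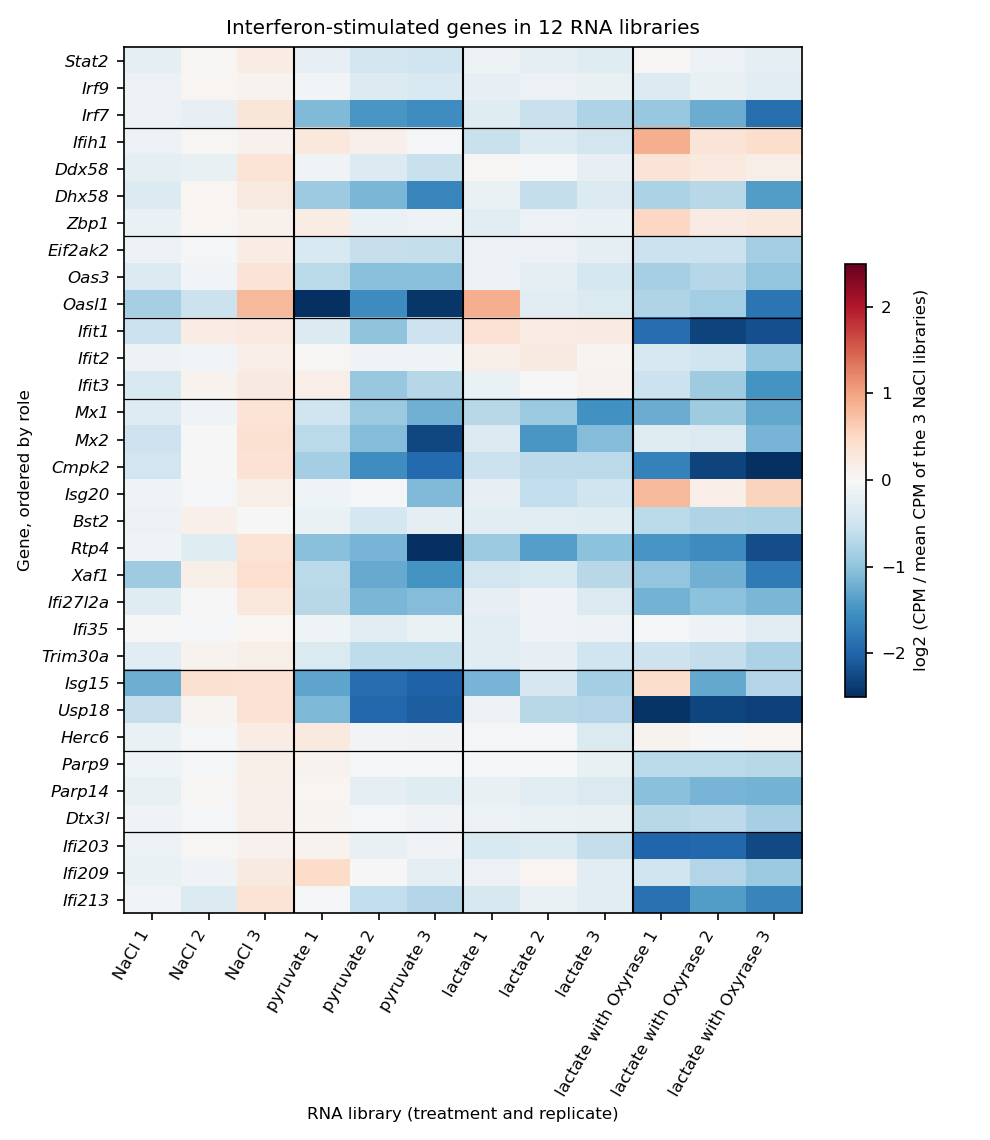
Level of each of the 32 genes (rows, grouped by role) in the 12 RNA libraries (columns), as log2 of CPM over the mean CPM of the 3 NaCl libraries; blue is lower, red higher, and values beyond the colour bar take its end colour. Usp18, Irf7 and Cmpk2 are blue in all pyruvate and all Oxyrase libraries, whereas Ifi203, Parp14 and Ifit2 are bluest in the 3 libraries with Oxyrase.

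In lactate at the same dose some of these transcripts were lower than in NaCl. Of the 32 genes 5 fell (Ifih1, Mx1, Bst2, Parp14 and Ifi203) and 0 rose, where 4.12% of all tested genes fell and 3.61% rose. The median difference was -0.26, and 29 of 32 differences were below 0. The calls rest on single libraries: 2 genes fell without NaCl 2, NaCl 3 or lactate 2, 3 without lactate 1 and 1 without lactate 3. The count was 12 without the filter on low counts, and its difference from the 17 under pyruvate was not tested as a count. Ifi203 kept its call in every alternative run and was the only gene of the 5 to do so.

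Pyruvate and lactate differ by an oxidized carbon, a ketone in pyruvate where lactate has a hydroxyl group, and were given at the same dose for the same time. Set against each other directly, 8 of the 32 genes were lower in pyruvate (Irf7, Dhx58, Eif2ak2, Oas3, Oasl1, Ifit1, Ifi27l2a and Usp18) and 2 were higher (Ifih1 and Ifi203), where 10.9% of all tested genes were lower and 13% higher. Oasl1 is among the 8 but averaged under 0.5 CPM in pyruvate and met the level threshold only through other groups. The median difference was -0.20. For the 22 genes that did not pass, the difference is bounded rather than shown to be absent: in 13 of them the 95% interval lay within 1.5-fold either way, and in 16 within 2-fold. Among the narrow ones were Parp9 (0.09, 95% interval -0.04 to 0.21), Ifi35 (-0.01, 95% interval -0.14 to 0.12) and Bst2 (0.01, 95% interval -0.14 to 0.16). Isg15 (-0.94, 95% interval -1.89 to 0.00) and Cmpk2 (-0.75, 95% interval -1.39 to -0.10) had wide intervals that reached large differences. These intervals are not adjusted for the number of genes. Leaving out 1 library at a time gave 6 to 9 genes lower and 2 higher.

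With Oxyrase added to lactate most of the genes fell and 3 rose. Of the 32 genes 19 fell and 3 rose (Ifih1, Isg20 and Zbp1), where 23.6% of all tested genes fell and 26.1% rose. The median difference was -0.58, and the groups of 3 libraries did not overlap for any of the 22 called genes. Calls and lack of overlap describe the same values here, and no share over all tested genes is given for the latter. All 3 IFIT, all 3 macrodomain and all 3 IFI200 genes were among those that fell. Ifit1 and Cmpk2 are among the 19 but averaged under 0.5 CPM with Oxyrase and met the level threshold only through other groups. Against NaCl the libraries with lactate and Oxyrase had 23 genes lower and 2 higher (Ifih1 and Zbp1), where 24.3% of all tested genes were lower and 26.5% higher, with a median of -0.73. Without NaCl 1 or without Oxyrase 1 the higher count was 1, as Zbp1 lost its call. Both comparisons use the same 3 Oxyrase libraries, so their counts are not independent. The 23 genes lower than in NaCl include Ifit1, Cmpk2 and Rtp4, which met the level threshold only through other groups.

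**Figure D2:**
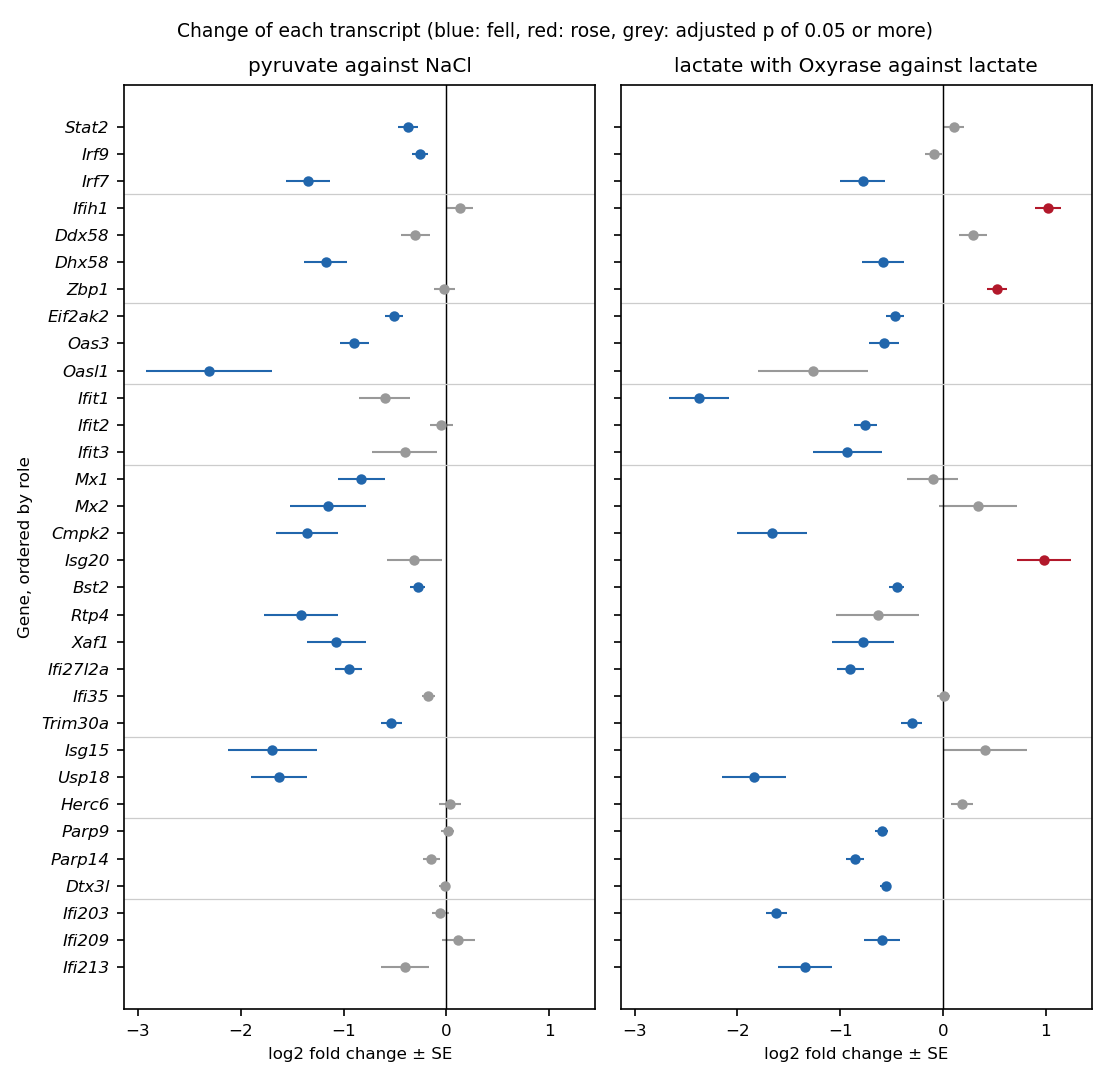
Log2 fold change ± SE (x axis) of each of the 32 transcripts (y axis, grouped by role), pyruvate against NaCl at left and lactate with Oxyrase against lactate at right; blue points fell, red points rose and grey points did not pass. The IFIT, macrodomain and IFI200 genes are grey at left and blue at right, and Ifih1, Zbp1 and Isg20 are the 3 red points.

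A direct comparison of lactate with Oxyrase and pyruvate, added after the values had been seen, separated the genes in both directions. Lower with Oxyrase were 9 genes (Ifit1, Ifit2, Bst2, Parp9, Parp14, Dtx3l, Ifi203, Ifi209 and Ifi213), where 21.2% of all tested genes were lower. Ifit1 is among the 9 but averaged under 0.5 CPM with Oxyrase and met the level threshold only through other groups. Higher were 6 genes (Stat2, Ifih1, Ddx58, Zbp1, Isg20 and Isg15), where 22.9% of all tested genes were higher. Both counts are shares of 32 close to those of all genes. The higher count was 3 without pyruvate 2 or pyruvate 3 and 2 without Oxyrase 1.

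Among the signal factors the differences of Stat2 and Irf9 were small. Stat2 (ENSMUSG00000040033; GRCm38.p6 chromosome 10, 128270498 to 128292853), a subunit of ISGF3, was at 26, 31.2 and 34.8 CPM in NaCl, 26.6, 22.4 and 21.6 in pyruvate, 27.9, 25.9 and 25 in lactate, and 31.1, 27.9 and 25.9 in lactate with Oxyrase. The groups overlapped throughout, with NaCl 1 as low as the lactate libraries. Its difference was -0.37 ± 0.10 (adjusted p = 0.0148) in pyruvate against NaCl, where the call was lost without NaCl 2, NaCl 3, pyruvate 2 or pyruvate 3, with adjusted p up to 0.079, and 0.26 ± 0.10 (adjusted p = 0.0395) in lactate with Oxyrase against pyruvate, where the call was lost without pyruvate 2, pyruvate 3, Oxyrase 1 or Oxyrase 2, with adjusted p up to 0.17. Irf9 (ENSMUSG00000002325; chromosome 14, 55603985 to 55610030), the DNA-binding partner in ISGF3, was at 27.3, 31.1 and 32.1 CPM in NaCl, 28.8, 23.8 and 23.2 in pyruvate, 26.2, 27.2 and 26.6 in lactate, and 23.7, 26.7 and 24.6 in lactate with Oxyrase. These levels were close together, and all 3 Oxyrase libraries lay below all 3 NaCl libraries. Irf9 fell by 0.27 ± 0.08 on the log2 scale with Oxyrase against NaCl (adjusted p = 0.00847) and by 0.25 ± 0.08 in pyruvate against NaCl (adjusted p = 0.0346), and in the latter the call was lost without NaCl 2, NaCl 3, pyruvate 2 or pyruvate 3, with adjusted p up to 0.156.

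Irf7 (ENSMUSG00000025498; chromosome 7, 141263183 to 141266499), the interferon regulatory factor that drives most type I interferon genes and is itself interferon-induced, had larger differences than Stat2 and Irf9. It stood at 3.94, 3.8 and 5.36 CPM in NaCl, 2.04, 1.59 and 1.49 in pyruvate, 3.54, 2.97 and 2.56 in lactate, and 2.26, 1.86 and 1.18 in lactate with Oxyrase. Every pyruvate and every Oxyrase library was below every NaCl and every lactate library. Against NaCl the difference was -1.34 ± 0.21 (adjusted p = 0.000404) in pyruvate and -1.31 ± 0.22 (adjusted p = 7.39e-05) in lactate with Oxyrase. Pyruvate was also below lactate, by 0.81 ± 0.22 on the log2 scale (adjusted p = 0.012), where the call was lost without pyruvate 2 or lactate 1, with adjusted p up to 0.0506. Oxyrase with lactate against lactate gave -0.78 ± 0.22 (adjusted p = 0.0073). Pyruvate and lactate with Oxyrase did not differ beyond their spread (0.03, 95% interval -0.47 to 0.53).

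The 4 cytoplasmic sensors of nucleic acids went in different directions. Ifih1 (ENSMUSG00000026896; chromosome 2, 62595618 to 62646255) encodes MDA5, which senses long double-stranded RNA. Its levels were 14, 15.8 and 16.9 CPM in NaCl, 18.7, 16.9 and 15.3 in pyruvate, 10.6, 12.2 and 11.3 in lactate, and 29.3, 19.5 and 21.1 in lactate with Oxyrase. All 3 Oxyrase libraries were above every other library, Oxyrase 1 most of all, and all 3 lactate libraries were below every other. Ifih1 rose by 1.02 ± 0.12 with Oxyrase against lactate (adjusted p = 2.63e-06), by 0.58 ± 0.12 with Oxyrase against NaCl (adjusted p = 0.000689) and by 0.45 ± 0.12 against pyruvate (adjusted p = 0.00543). Pyruvate exceeded lactate by 0.57 ± 0.13 (adjusted p = 0.00313). The fall in lactate against NaCl, -0.44 ± 0.13 (adjusted p = 0.0447), was lost on leaving out any 1 of the 6 libraries, with adjusted p up to 0.136.

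Zbp1 (ENSMUSG00000027514; chromosome 2, 173206612 to 173218959), a sensor of left-handed nucleic acids that triggers cell death, moved the same way with Oxyrase. It was at 13, 15 and 15.7 CPM in NaCl, 16.6, 13.1 and 13.4 in pyruvate, 11.9, 13.2 and 12.9 in lactate, and 20.8, 16.7 and 17.5 in lactate with Oxyrase. Each Oxyrase library was above the highest of the other 9 libraries, 16.6 CPM in pyruvate 1. It rose by 0.53 ± 0.10 against lactate (adjusted p = 0.000336) and by 0.33 ± 0.10 against NaCl (adjusted p = 0.0113); in the latter the call was lost without NaCl 1 or Oxyrase 1, with adjusted p up to 0.0708. Against pyruvate the rise was 0.35 ± 0.10 (adjusted p = 0.00875), where the call was lost without pyruvate 2 or Oxyrase 1, with adjusted p up to 0.0576.

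Ddx58 (ENSMUSG00000040296; chromosome 4, 40203777 to 40239825), which encodes the RNA sensor RIG-I, was at 7.92, 8.22 and 11.8 CPM in NaCl, 8.72, 7.31 and 6.38 in pyruvate, 9.56, 9.16 and 8.09 in lactate, and 11.6, 11 and 10.3 in lactate with Oxyrase. Of the 6 comparisons it passed only in Oxyrase against pyruvate, at 0.55 ± 0.14 (adjusted p = 0.00377), while Oxyrase against lactate gave 0.29 ± 0.14 (adjusted p = 0.082). Dhx58 (ENSMUSG00000017830; chromosome 11, 100694884 to 100704271) encodes LGP2, a relative that tunes both sensors, and was at 3.79, 4.99 and 5.63 CPM in NaCl, 2.55, 2.18 and 1.56 in pyruvate, 4.31, 3.19 and 3.81 in lactate, and 2.78, 2.96 and 1.82 in lactate with Oxyrase. The pyruvate libraries were below all NaCl and all lactate libraries. Dhx58 fell in pyruvate by 1.18 ± 0.21 against NaCl (adjusted p = 0.00093) and by 0.83 ± 0.21 against lactate (adjusted p = 0.00807). With Oxyrase it fell by 0.93 ± 0.21 against NaCl (adjusted p = 0.00106) and by 0.58 ± 0.21 against lactate (adjusted p = 0.0271), where the call was lost without lactate 1, lactate 3 or Oxyrase 3, with adjusted p up to 0.151.

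The effectors that act on double-stranded RNA were lower in pyruvate. Eif2ak2 encodes PKR, the kinase that halts translation. Oas3 and Oasl1 belong to the oligoadenylate synthetase family, of which some members activate RNase L. Oas3 (ENSMUSG00000032661; chromosome 5, 120753098 to 120777684) was at 11.8, 14.3 and 18.7 CPM in NaCl, 9.41, 7.24 and 7.24 in pyruvate, 13.4, 12.7 and 11 in lactate, and 8.41, 9.04 and 7.5 in lactate with Oxyrase. The pyruvate and Oxyrase libraries all lay below the NaCl and lactate libraries. Oas3 differed by -0.90 ± 0.14 (adjusted p = 0.000432) in pyruvate and -0.84 ± 0.15 (adjusted p = 0.000118) in lactate with Oxyrase, both against NaCl, and by -0.63 ± 0.14 (adjusted p = 0.00416) in pyruvate against lactate. Eif2ak2 averaged 42.1 ± 4.96 CPM in NaCl (SD, n = 3), 29.5 ± 2.51 CPM in pyruvate, 37.5 ± 1.22 CPM in lactate and 27.1 ± 3.2 CPM with Oxyrase. It fell in pyruvate against NaCl (-0.51 ± 0.09) and against lactate (-0.35 ± 0.09) and with Oxyrase against lactate (-0.47 ± 0.09), with adjusted p of 0.000703, 0.00776 and 0.000278. Oasl1 (ENSMUSG00000041827; chromosome 5, 114923143 to 114937911) was scarce, at 0.422, 0.517 and 1.31 CPM in NaCl, 0.0287, 0.253 and 0.139 in pyruvate, 1.4, 0.627 and 0.584 in lactate, and 0.444, 0.413 and 0.212 in lactate with Oxyrase. All pyruvate libraries were below all NaCl and lactate libraries, and pyruvate 1 held 1 count. The differences of -2.31 ± 0.62 (adjusted p = 0.0173) in pyruvate against NaCl and -2.53 ± 0.60 (adjusted p = 0.00539) against lactate therefore rest on few counts, and in the former the call was lost without NaCl 3, pyruvate 1 or pyruvate 3, with adjusted p up to 0.105.

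The IFIT proteins bind viral RNA that lacks host cap marks. Ifit1 (ENSMUSG00000034459; chromosome 19, 34640889 to 34650009) was at 1.05, 1.73 and 1.81 CPM in NaCl, 1.2, 0.759 and 1.07 in pyruvate, 1.96, 1.75 and 1.78 in lactate, and 0.407, 0.31 and 0.334 in lactate with Oxyrase. Every Oxyrase library was below every other library, and every pyruvate library was below every lactate library. With Oxyrase Ifit1 was 5.18-fold lower than in lactate, a log2 difference of -2.37 ± 0.29 (adjusted p = 2.71e-06). The differences were -2.12 ± 0.30 (adjusted p = 1.28e-05) against NaCl and -1.52 ± 0.31 (adjusted p = 0.00064) against pyruvate. In pyruvate against lactate the difference was -0.86 ± 0.24 (adjusted p = 0.0161), where the call was lost without pyruvate 2, with adjusted p of 0.0837, and in pyruvate against NaCl it did not pass (-0.60 ± 0.25, adjusted p = 0.114). Ifit2 fell with Oxyrase against lactate (-0.75 ± 0.11, adjusted p = 3.05e-05). So did Ifit3 (-0.93 ± 0.33, adjusted p = 0.028), where the call was lost without lactate 2, lactate 3, Oxyrase 2 or Oxyrase 3, with adjusted p up to 0.134. Reads of Ifit3 and its near copy Ifit3b may have been divided between both genes when counts were estimated.

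**Figure D3:**
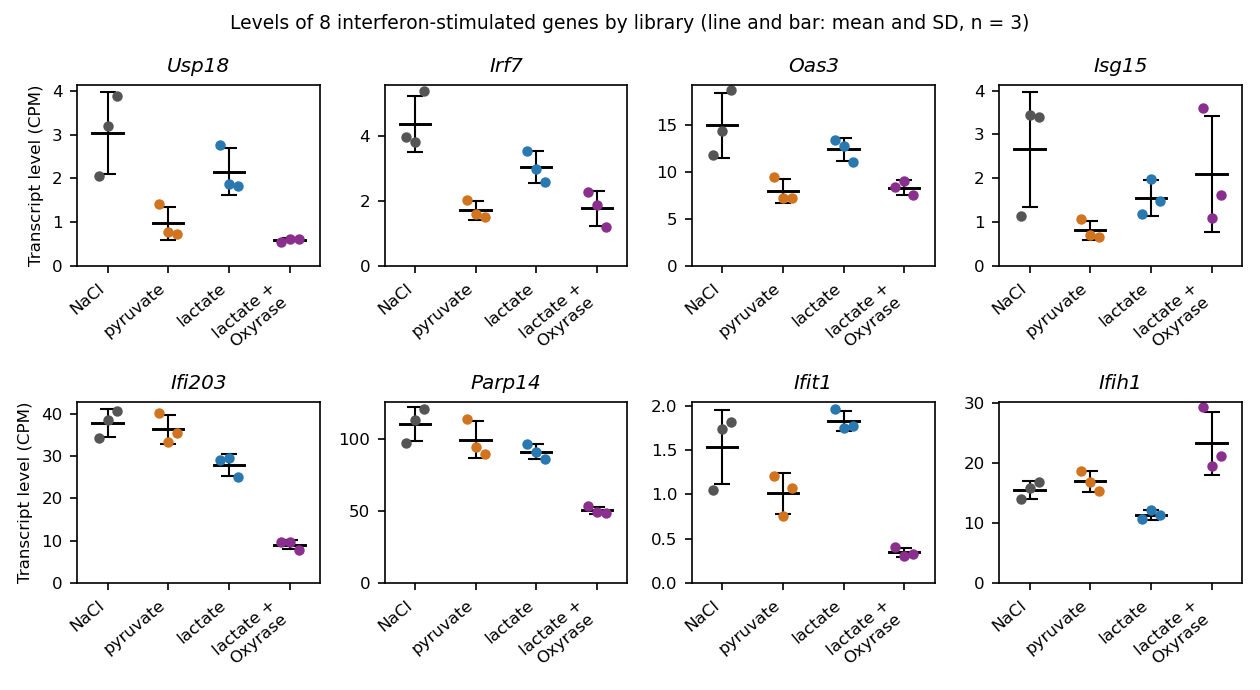
Level in CPM (y axis, from 0) of 8 of the genes in each RNA library, by treatment (x axis); points are libraries, horizontal lines group means and bars SD (n = 3). Usp18, Irf7 and Oas3 are low in both pyruvate and lactate with Oxyrase, Ifi203, Parp14 and Ifit1 are lowest with Oxyrase, Ifih1 is highest with Oxyrase, and the Isg15 libraries scatter within groups.

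The 10 genes with other antiviral products include the dynamin-like GTPases Mx1 and Mx2, the mitochondrial nucleotide kinase Cmpk2, the exonuclease Isg20 and tetherin, Bst2, which holds budding virions at the membrane. Mx1 (ENSMUSG00000000386; chromosome 16, 97447035 to 97462906) was at 2.74, 3.2 and 4.32 CPM in NaCl, 2.41, 1.8 and 1.49 in pyruvate, 2.1, 1.8 and 1.19 in lactate, and 1.44, 1.86 and 1.4 in lactate with Oxyrase. All 9 treated libraries were below all 3 NaCl libraries. Its differences against NaCl were -0.83 ± 0.23 (adjusted p = 0.0203) in pyruvate, -1.02 ± 0.23 (adjusted p = 0.0137) in lactate and -1.12 ± 0.24 (adjusted p = 0.000796) in lactate with Oxyrase. In pyruvate the call was lost without NaCl 3, pyruvate 2 or pyruvate 3, with adjusted p up to 0.104, and in lactate the call was lost without NaCl 3 or lactate 3, with adjusted p up to 0.0666. Cmpk2 (ENSMUSG00000020638; chromosome 12, 26469117 to 26479837) was at 1.72, 2.37 and 3.08 CPM in NaCl, 1.32, 0.81 and 0.624 in pyruvate, 1.65, 1.53 and 1.5 in lactate, and 0.741, 0.481 and 0.273 in lactate with Oxyrase. Both the pyruvate and the Oxyrase libraries were below all NaCl and lactate libraries. Cmpk2 fell by 1.66 ± 0.34 with Oxyrase against lactate (adjusted p = 0.000633), by 2.27 ± 0.33 against NaCl (adjusted p = 2.18e-05) and by 1.36 ± 0.30 in pyruvate against NaCl (adjusted p = 0.00512).

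Bst2 (ENSMUSG00000046718; chromosome 8, 71534255 to 71537472) was at 41.6, 50.2 and 46 CPM in NaCl, 41.2, 33.7 and 38.8 in pyruvate, 37.6, 38.1 and 37.1 in lactate, and 28.9, 27.2 and 26.6 in lactate with Oxyrase. Oxyrase libraries were below all others, and pyruvate and lactate libraries lay between these and NaCl. Bst2 fell with Oxyrase by 0.74 ± 0.07 against NaCl (adjusted p = 2.76e-07) and by 0.45 ± 0.07 against lactate (adjusted p = 8.15e-05). Smaller falls against NaCl were -0.28 ± 0.07 (adjusted p = 0.0137) in pyruvate, where the call was lost without NaCl 2 or pyruvate 2, with adjusted p up to 0.089, and -0.29 ± 0.07 (adjusted p = 0.0215) in lactate, where the call was lost without NaCl 2, lactate 2 or lactate 3, with adjusted p up to 0.125. Isg20 (ENSMUSG00000039236; chromosome 7, 78913396 to 78920396) went the other way, at 1.17, 1.22 and 1.39 CPM in NaCl, 1.18, 1.21 and 0.589 in pyruvate, 1.09, 0.818 and 0.888 in lactate, and 2.22, 1.41 and 1.85 in lactate with Oxyrase. The Oxyrase libraries were above every other library. Isg20 rose by 0.98 ± 0.26 against lactate (adjusted p = 0.005) and by 0.85 ± 0.26 against pyruvate (adjusted p = 0.013), and in the latter the call was lost without pyruvate 3 or Oxyrase 1, with adjusted p up to 0.0628. Against NaCl the difference, 0.54 ± 0.26 (adjusted p = 0.0919), did not pass.

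Rtp4 (ENSMUSG00000033355) was at 1.05, 0.913 and 1.43 CPM in NaCl, 0.545, 0.506 and 0.173 in pyruvate, 0.595, 0.436 and 0.558 in lactate, and 0.407, 0.378 and 0.243 in lactate with Oxyrase. The 3 NaCl libraries were above all others. It differed by -1.41 ± 0.36 (adjusted p = 0.0123) in pyruvate against NaCl, where the call was lost without NaCl 3, with adjusted p of 0.058, and by -1.72 ± 0.38 (adjusted p = 0.00104) with Oxyrase against NaCl. Ifi27l2a averaged 21.6 ± 4.23 CPM in NaCl (SD, n = 3), 11.1 ± 1.91 CPM in pyruvate, 18.6 ± 1.78 CPM in lactate and 9.94 ± 0.581 CPM with Oxyrase, and fell in pyruvate against NaCl (-0.95 ± 0.13, adjusted p = 9.32e-05) and against lactate (-0.74 ± 0.13, adjusted p = 0.000505). Xaf1, an antagonist of the apoptosis inhibitor XIAP, fell in pyruvate against NaCl (-1.07 ± 0.28, adjusted p = 0.017), where the call was lost without NaCl 2, NaCl 3, pyruvate 2 or pyruvate 3, with adjusted p up to 0.0924. The ubiquitin ligase gene Trim30a, one of a family of near copies, fell in pyruvate against NaCl (-0.53 ± 0.10, adjusted p = 0.00213) and with Oxyrase against lactate (-0.31 ± 0.11, adjusted p = 0.0239), and in the latter the call was lost without lactate 1, lactate 2 or Oxyrase 3, with adjusted p up to 0.123, and was also lost with DESeq2. Mx2 fell in 1 of the 6 comparisons, pyruvate against NaCl (-1.15 ± 0.37, adjusted p = 0.0446), where the call was lost without NaCl 2, NaCl 3, pyruvate 2 or pyruvate 3, with adjusted p up to 0.163. For Ifi35 a single small fall passed, with Oxyrase against NaCl (-0.16 ± 0.06, adjusted p = 0.0499), and the call was lost without NaCl 1, NaCl 2, NaCl 3, Oxyrase 2 or Oxyrase 3, with adjusted p up to 0.256.

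Isg15 is a ubiquitin-like protein that is joined to other proteins, Herc6 is the ligase that joins it in mice, and Usp18 removes it and also blocks the type I interferon receptor. Usp18 (ENSMUSG00000030107; chromosome 6, 121245906 to 121270917) was at 2.05, 3.2 and 3.89 CPM in NaCl, 1.41, 0.785 and 0.728 in pyruvate, 2.77, 1.88 and 1.83 in lactate, and 0.556, 0.619 and 0.607 in lactate with Oxyrase. The Oxyrase libraries were lowest and close together, and the pyruvate libraries lay between these and the NaCl and lactate libraries. Usp18 was 3.09-fold lower in pyruvate than in NaCl (-1.63 ± 0.28, adjusted p = 0.000689) and 3.58-fold lower with Oxyrase than in lactate (-1.84 ± 0.31, adjusted p = 9.09e-05). Pyruvate was below lactate by 1.13 ± 0.28 on the log2 scale (adjusted p = 0.00738), and lactate with Oxyrase against NaCl gave -2.34 ± 0.30 (adjusted p = 5.4e-06).

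Isg15 (ENSMUSG00000035692; chromosome 4, 156199424 to 156200818) was at 1.14, 3.44 and 3.39 CPM in NaCl, 1.06, 0.709 and 0.659 in pyruvate, 1.19, 1.99 and 1.47 in lactate, and 3.59, 1.1 and 1.61 in lactate with Oxyrase. All 3 pyruvate libraries were below all others, NaCl 1 was far below NaCl 2 and NaCl 3, and Oxyrase 1 was far above Oxyrase 2 and Oxyrase 3. Isg15 differed by -1.69 ± 0.43 (adjusted p = 0.013) in pyruvate against NaCl, where the call was lost without NaCl 2, NaCl 3, pyruvate 2 or pyruvate 3, with adjusted p up to 0.0706. With Oxyrase against pyruvate it differed by 1.35 ± 0.44 (adjusted p = 0.0196), where the call was lost without pyruvate 2, pyruvate 3 or Oxyrase 1, with adjusted p up to 0.182. Its difference with Oxyrase against lactate did not pass (0.41 ± 0.41, adjusted p = 0.433). Herc6 passed in none of the 6 comparisons, with group means from 12.5 CPM in lactate to 14.2 CPM with Oxyrase.

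Parp9, Parp14 and Dtx3l encode macrodomain or partner proteins of ADP-ribosylation, and Parp9 and Dtx3l form a complex. Parp14 (ENSMUSG00000034422; chromosome 16, 35831892 to 35871518) was at 97.6, 113 and 121 CPM in NaCl, 115, 94.9 and 90.0 in pyruvate, 96.7, 91.2 and 86.7 in lactate, and 53.4, 49.7 and 48.7 in lactate with Oxyrase. The 3 Oxyrase libraries were below the lowest of the other 9 libraries, 86.7 CPM in lactate 3. Parp14 fell by 0.86 ± 0.08 with Oxyrase against lactate (adjusted p = 2.24e-07), by 0.98 ± 0.08 against pyruvate (adjusted p = 5.37e-08) and by 1.13 ± 0.08 against NaCl (adjusted p = 6.64e-09). A small fall in lactate against NaCl, -0.27 ± 0.08 (adjusted p = 0.047), was lost in 5 of 6 fits that left out 1 library, with adjusted p up to 0.157 (it held without NaCl 1), and with DESeq2. Parp9 and Dtx3l went with it, at -0.60 ± 0.06 (adjusted p = 4.12e-07) and -0.56 ± 0.06 (adjusted p = 4.04e-07) with Oxyrase against lactate. In pyruvate against NaCl the 3 genes had differences of 0.01 ± 0.06, -0.15 ± 0.08 and -0.02 ± 0.06, none of which passed. The annotated spans of Parp9 and Dtx3l overlap at 1 end, so reads in the shared stretch may count for either gene.

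The IFI200 genes encode proteins with pyrin and DNA-binding domains and lie together on chromosome 1. They are alike in sequence, so estimated counts may have been shared among them. Ifi203 (ENSMUSG00000039997; chromosome 1, 173920400 to 173942866) was at 34.2, 38.6 and 40.8 CPM in NaCl, 40.1, 33.3 and 35.5 in pyruvate, 29.2, 29.6 and 25 in lactate, and 9.63, 9.73 and 7.95 in lactate with Oxyrase. The Oxyrase libraries were far below all others, and the lactate libraries were below all NaCl and pyruvate libraries. With Oxyrase Ifi203 was 3.07-fold lower than in lactate (-1.62 ± 0.10, adjusted p = 6.12e-10) and 4.0-fold lower than in pyruvate (-2.0 ± 0.10, adjusted p = 7.26e-11). Against NaCl it differed by -2.06 ± 0.10 (adjusted p = 2.76e-11) with Oxyrase and by -0.44 ± 0.09 (adjusted p = 0.00608) in lactate, and pyruvate exceeded lactate by 0.38 ± 0.09 (adjusted p = 0.00382). Ifi213 (ENSMUSG00000073491; chromosome 1, 173566280 to 173599348) was at 1.81, 1.49 and 2.39 CPM in NaCl, 1.86, 1.24 and 1.14 in pyruvate, 1.44, 1.69 and 1.57 in lactate, and 0.519, 0.722 and 0.607 in lactate with Oxyrase. Its Oxyrase libraries also lay below all others, with differences of -1.34 ± 0.26 (adjusted p = 0.00041) against lactate and -1.20 ± 0.27 (adjusted p = 0.00145) against pyruvate. Ifi209 fell with Oxyrase against lactate (-0.59 ± 0.17, adjusted p = 0.00861). Of the genes kept out by the level threshold only Oasl2 and Rsad2 were tested, and of these only Oasl2 passed anywhere, with lower values with Oxyrase than in NaCl.

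Within groups the libraries ranked alike for many of the 32 genes. NaCl 1 was the lowest NaCl library for 28 of 32 genes and NaCl 3 the highest for 30. Pyruvate 1 was the highest pyruvate library for 30 genes, and pyruvate 3 the lowest for 22. Lactate 3 was the lowest lactate library for 20 genes, while lactate 1 was the highest for 16 and lactate 2 for 15, and Oxyrase 3 the lowest of its group for 22. No share over all tested genes is given for these ranks, so they are not shown to be particular to the 32 genes. Summed over the 32 genes the level was 627 to 780.1 CPM in NaCl, 562 to 666 in pyruvate, 571 to 618 in lactate and 423 to 487 with Oxyrase, sums that the few abundant genes dominate. The 32 genes are thus not 32 separate measurements.

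Upstream of these genes the receptor and its signal chain showed small differences in pyruvate (-0.10 to 0.14) and in lactate (-0.28 to 0.09) against NaCl. With Oxyrase against lactate the differences ran wider, from -1.10 to 0.67. Of 9 genes of the receptor and JAK-STAT list, 1 rose and 0 fell in pyruvate against NaCl. The count was 0 up and 2 down in lactate against NaCl, and 2 up and 4 down with Oxyrase against lactate. For scale, 9.4% of all tested genes rose and 6.28% fell in pyruvate against NaCl. The shares were 3.61% and 4.12% in lactate against NaCl, and 26.1% and 23.6% with Oxyrase against lactate. They also stand beside the counts of the gene lists in the next paragraphs. The receptor gene Ifnar1 was at 115, 125 and 129 CPM in NaCl, 129, 122 and 123 in pyruvate, 127, 127 and 124 in lactate, and 111, 113 and 107 in lactate with Oxyrase, and fell with Oxyrase against lactate (-0.19 ± 0.04, adjusted p = 0.00119). Ifngr1, of the interferon gamma receptor, fell by 1.10 ± 0.06 in the same comparison (adjusted p = 3.48e-10).

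Transcripts of type I and type III interferons themselves were almost absent. The 9 listed interferon genes other than Ifng had at most 6 counts in any library, and 2 of them were at 0 in all 12. Ifng, the type II interferon, averaged 799 CPM in NaCl and rose in pyruvate (0.68 ± 0.06, adjusted p = 2.65e-06), in lactate (0.32 ± 0.06, adjusted p = 0.0066) and with Oxyrase against lactate (1.77 ± 0.07, adjusted p = 1.26e-12). Of 18 measured genes for sensors, adaptors and regulatory factors upstream of interferon, 1 rose and 5 fell in pyruvate against NaCl and 0 rose and 5 fell in lactate against NaCl. With Oxyrase against lactate 3 rose and 9 fell. Irf1, a factor downstream of interferon gamma, was at 89.9, 93.5 and 91.5 CPM in NaCl, 88.3, 86.2 and 86.2 in pyruvate, 72.9, 68.2 and 73 in lactate, and 46.9, 49.1 and 47 in lactate with Oxyrase. Lactate libraries were below NaCl and pyruvate libraries, and Oxyrase libraries were below all. Irf1 fell in lactate against NaCl (-0.36 ± 0.04, adjusted p = 3.55e-05) and with Oxyrase against lactate (-0.58 ± 0.04, adjusted p = 2.55e-09), and did not pass in pyruvate against NaCl (-0.08 ± 0.04, adjusted p = 0.187). Samhd1, which depletes nucleotides, fell with Oxyrase against lactate (-1.09 ± 0.06, adjusted p = 8.61e-11), and Unc93b1, the chaperone of endosomal Toll-like receptors, fell in pyruvate against NaCl (-0.44 ± 0.09, adjusted p = 0.00268).

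Of 12 negative regulators of the pathway, a list that holds Isg15 and Usp18 as well, 1 rose and 3 fell in pyruvate against NaCl. The other genes that passed there were Tob1 (0.46 ± 0.10, adjusted p = 0.00545) and the phosphatase gene Ptpn1 (-0.15 ± 0.03, adjusted p = 0.00258).

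Interferon-induced GTPases, of which 18 were measured, gave other counts under pyruvate. In pyruvate against NaCl 7 of them rose and 1 fell, with a median of 0.08, beside 0 and 17 of the 32 interferon-stimulated genes with a median of -0.41. In lactate against NaCl 0 GTPase genes rose and 11 fell, with a median of -0.33. In pyruvate against lactate 16 rose and 0 fell, where 13% of all tested genes were higher and 10.9% lower. Gbp2, a guanylate-binding protein, was at 259, 249 and 252 CPM in NaCl, 332, 314 and 312 in pyruvate, 168, 167 and 155 in lactate, and 102, 102 and 102 in lactate with Oxyrase. Its pyruvate libraries were above all NaCl libraries, its lactate libraries were below them, and its Oxyrase libraries were lowest. Gbp2 differed by 0.33 ± 0.04 (adjusted p = 1.59e-05) in pyruvate and -0.63 ± 0.04 (adjusted p = 1.4e-07) in lactate against NaCl. With Oxyrase against lactate 2 GTPase genes rose and 12 fell, among them Iigp1 (-1.69 ± 0.09, adjusted p = 7.78e-11). The difference between both gene groups was not tested.

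**Figure D4:**
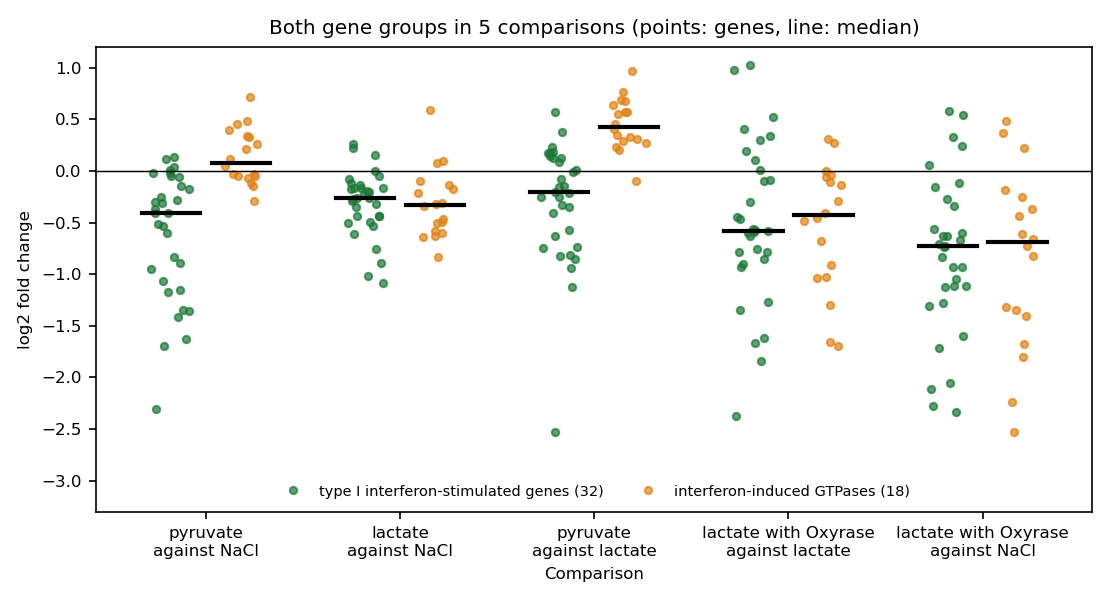
Log2 fold change (y axis) of each of the 32 type I interferon-stimulated genes (green) and of 18 interferon-induced GTPase genes (orange) in 5 comparisons (x axis); points are genes and black lines medians. In pyruvate against NaCl the medians are -0.41 and 0.08, and in pyruvate against lactate they are -0.20 and 0.43.

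A wider list of 60 further interferon-stimulated genes, 53 of them measured, gave 2 up and 12 down in pyruvate against NaCl, 0 up and 17 down in lactate against NaCl, and 10 up and 26 down with Oxyrase against lactate. In pyruvate against lactate 9 were higher and 6 lower, with a median of 0.05, where 13% of all tested genes were higher and 10.9% lower. Further IFI200 genes were among those that fell in pyruvate against NaCl, Ifi206 (-0.97 ± 0.29, adjusted p = 0.0313) and Ifi208 (-0.72 ± 0.20, adjusted p = 0.0233). The gene of this list that rose most in pyruvate against NaCl was Lgals3 (1.79 ± 0.08, adjusted p = 3.65e-10), which encodes galectin 3 and is also raised by many signals other than interferon. Lgals3 averaged 14.5 CPM in NaCl, 50.7 in pyruvate, 12.6 in lactate and 158 with Oxyrase.

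Other values moved with the groups. The summed level of CD8 T cell markers was lower in all 3 Oxyrase libraries than in the other 9. The 7 myeloid and dendritic markers, none of them at 0 in all libraries, summed to 1.44 to 1.63 CPM with Oxyrase and 0.512 to 0.578 in NaCl. The sums were 0.717 to 0.81 CPM in pyruvate and 0.21 to 0.655 in lactate. Itgax, at 0.585 to 0.963 CPM with Oxyrase, made the largest part of the Oxyrase sums. Means in lactate and with Oxyrase were 0.0708 and 0.769 CPM for Itgax, 0.0877 and 0.333 for Xcr1, and 0.0708 and 0.189 for Cd14. For Flt3 they were 0.0689 and 0.138 CPM, and for Adgre1 0 and 0.0115. Csf1r (0.123 and 0.0898 CPM) and Lyz2 (0.0357 and 0 CPM) went the other way. The 3 NK cell markers, which include Eomes, a factor CD8 T cells also make, summed to 34.8 to 39.6 CPM in pyruvate, 27.5 to 32.3 in NaCl, 21.7 to 26.5 in lactate and 18 to 20.1 with Oxyrase. The 2 CD4 T cell markers, Cd4 and Foxp3, summed to 4.54 to 5.21 CPM in NaCl and 1.09 to 1.38 with Oxyrase. Their sums were 2.63 to 4.19 CPM in pyruvate and 3.95 to 4.77 CPM in lactate. Foxp3 made up most of them, with means of 4.46 CPM in NaCl, 3.05 in pyruvate, 3.98 in lactate and 0.845 with Oxyrase. Cd4 averaged 0.498, 0.406, 0.447 and 0.361 CPM in the same order. The part of these values in the results above was not tested.

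Accessibility at the starts of these genes was read from 37 distinct ATAC peaks within 1 kb of a start, which lie at 31 of the 32 genes, with none at Rtp4. Parp9 and Dtx3l share 1 peak, and 9 genes had no strand in the tables used, so either gene end was taken for them. Under pyruvate no peak in the whole table passed against NaCl (0 of 75802 in edgeR without a replicate term and 0 in DESeq2, 0% of peaks at gene starts), with 4060 peaks at an unadjusted p under 0.05 in edgeR, 1 of them among the 37. Of the 31 genes with a peak over a start, 16 transcripts fell in this comparison without any called change of the peak. The 37 peaks had differences from -0.15 to 0.21 there, with a median of 0.00.

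Oxyrase changed accessibility widely, and the direction at these starts depends on how libraries are scaled. With scaling over all peaks, 1 of the 37 peaks was higher and 6 were lower in lactate with Oxyrase than in lactate, where 5.55% of all peaks within 1 kb of a gene start were higher and 20.5% lower. With scaling by peaks at gene starts the split was 6 higher and 1 lower, where 10.3% and 10.2% of such peaks were. Against NaCl the split went from 5 higher and 6 lower, where 9.32% and 41.4% of gene-start peaks were, to 14 higher and 2 lower, where 24.7% and 23.9% were. Against pyruvate it went from 5 higher and 7 lower, where 9.85% and 39.8% were, to 15 higher and 4 lower, where 26.4% and 24% were. In pyruvate against lactate, with 2 higher and 2 lower where 18.2% and 2.22% of gene-start peaks were, the other scaling gave 1 higher and 10 lower, where 12% and 8.36% were. With scaling over all peaks the share of the 37 peaks called lower was under that of all gene-start peaks in each of the 3 Oxyrase comparisons. Scaling by gene-start peaks moved the median of all peaks from -0.02 to 0.09 with Oxyrase against lactate, from 0.03 to 0.24 against NaCl, from 0.05 to 0.27 against pyruvate, and from -0.03 to -0.14 in pyruvate against lactate. Over all peaks it moved the calls with Oxyrase against lactate from 11843 higher and 9696 lower to 15542 and 4720.

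The peak over the start of Ifi213, the gene whose ISRE stretch is printed above, was lower with Oxyrase than in lactate under both scalings. It was at 12.2, 12.1 and 15.5 CPM in NaCl, 12.7, 14 and 13.6 in pyruvate, 15, 15.8 and 15.4 in lactate, and 11.3, 11.6 and 10.4 in lactate with Oxyrase. The Oxyrase libraries were below all others. The difference against lactate was -0.47 ± 0.10 (adjusted p = 0.000609), and -0.37 (adjusted p = 0.0181) with scaling by gene-start peaks. Against NaCl (-0.26 ± 0.11, adjusted p = 0.0449) and pyruvate (-0.27 ± 0.11, adjusted p = 0.0395) the calls were lost with the other scaling, at -0.05 (adjusted p = 0.749) and -0.06 (adjusted p = 0.721), and in 4 of 6 fits each that left out 1 library. The peak of Irf7 was at 39.3, 37.6 and 44.4 CPM in NaCl, 41.2, 37.9 and 44.7 in pyruvate, 44.1, 48.5 and 42.6 in lactate, and 41.1, 32.5 and 36.3 in lactate with Oxyrase, with a difference of -0.30 ± 0.09 (adjusted p = 0.0147) against lactate. The NaCl and pyruvate libraries, from 37.6 to 44.7 CPM, overlapped the ranges of both groups without covering them. This call did not hold with the other scaling, at -0.19 (adjusted p = 0.13), and the call was lost without lactate 2 or Oxyrase 2, with adjusted p up to 0.119. Over the Ifit1 start, with its 2 printed ISRE matches, the peak was at 19.5, 18.2 and 20.3 CPM in NaCl, 18.1, 19.2 and 18.6 in pyruvate, 20.3, 21.8 and 18.4 in lactate, and 16.5, 16 and 17.6 in lactate with Oxyrase. The Oxyrase libraries were below all others. The peak's difference with Oxyrase against lactate was -0.28 ± 0.09 (adjusted p = 0.0213), while the transcript differed by -2.37 ± 0.29; the peak gave -0.17 (adjusted p = 0.203) with the other scaling, and the call was lost without lactate 2, Oxyrase 1 or Oxyrase 2, with adjusted p up to 0.133.

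The Isg15 start, with its block of 3 ISRE matches, had its peak at 13.7, 14.5 and 12 CPM in NaCl, 13.6, 14.7 and 13.7 in pyruvate, 12.1, 12.9 and 10.6 in lactate, and 9.83, 9.6 and 8.82 in lactate with Oxyrase. All 3 Oxyrase libraries were below the other 9. The peak differed by -0.57 ± 0.11 (adjusted p = 3.6e-05) with Oxyrase against pyruvate, and by -0.36 (adjusted p = 0.00955) with the other scaling, while the transcript was higher by 1.35 ± 0.44. Against lactate the peak differed by -0.33 ± 0.11 (adjusted p = 0.0181), a call that did not hold with the other scaling (-0.23, adjusted p = 0.139), and the call was lost without lactate 2 or Oxyrase 3, with adjusted p up to 0.105. Ifi203 also had readouts that went apart, with its peak at 40.1, 37.9 and 39.7 CPM in NaCl, 35.7, 37.2 and 33.5 in pyruvate, 41, 40.4 and 42.9 in lactate, and 40.2, 51.6 and 45.2 in lactate with Oxyrase. The pyruvate libraries were below all others. With Oxyrase against pyruvate the peak was higher by 0.36 ± 0.09 (adjusted p = 0.00112), and by 0.58 (adjusted p = 2.08e-07) with the other scaling, while the transcript differed by -2.0 ± 0.10. The peak over Stat2 was lower with Oxyrase than in NaCl by 0.32 ± 0.09 (adjusted p = 0.00561), which the other scaling did not keep (-0.10, adjusted p = 0.284).

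The Irf9 start had a peak at 56, 59.5 and 53.7 CPM in NaCl, 54.4, 54.9 and 53.5 in pyruvate, 47.1, 43.1 and 44.5 in lactate, and 41.3, 38.8 and 37 in lactate with Oxyrase. Lactate libraries lay below NaCl and pyruvate libraries, and Oxyrase libraries below all. It was the 1 peak of the 37 that passed in lactate against NaCl (-0.33 ± 0.09, adjusted p = 0.0132), where 15.3% of gene-start peaks were lower and 0.496% higher. With the other scaling it gave -0.21 (adjusted p = 0.0514), 3 other peaks of the 37 were called higher, and the call was lost without NaCl 1, NaCl 2, lactate 2 or lactate 3, with adjusted p up to 0.123. The number of peaks called among the 37 in lactate against NaCl was 7 without NaCl 3. With Oxyrase against NaCl the Irf9 peak differed by -0.53 ± 0.09 (adjusted p = 2.83e-06), and by -0.31 (adjusted p = 0.00039) with the other scaling. The Bst2 peak was at 35.3, 38 and 31.1 CPM in NaCl, 38.6, 39 and 38.4 in pyruvate, 30.0, 30.0 and 27.5 in lactate, and 26.5, 27 and 26.2 in lactate with Oxyrase. The pyruvate libraries were highest and the Oxyrase libraries lowest, with no overlap between any 2 groups. It was lower with Oxyrase than in pyruvate by 0.54 ± 0.09 (adjusted p = 2.63e-06), and higher in pyruvate than in lactate by 0.41 ± 0.09 (adjusted p = 0.00161), and both calls held with the other scaling.

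**Figure D5:**
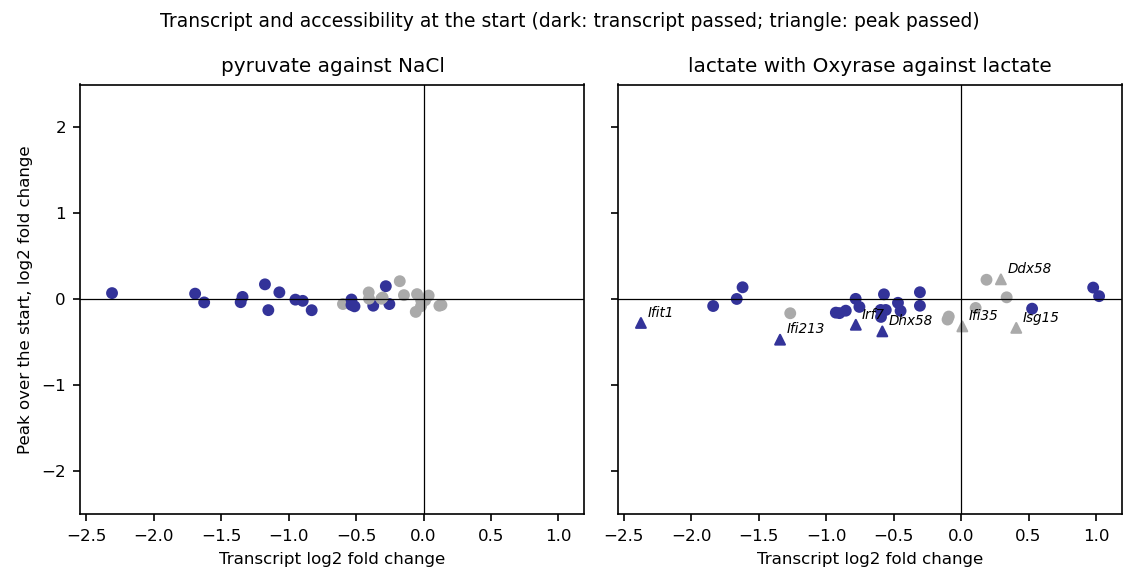
Log2 fold change of the transcript (x axis) and of the peak over the start (y axis, same scale) for 31 genes, pyruvate against NaCl at left and lactate with Oxyrase against lactate at right; dark symbols mark transcripts that passed and triangles peaks that passed, with scaling over all peaks. At left 16 transcripts fell with peaks within -0.15 to 0.21, and at right 4 genes (Irf7, Dhx58, Ifit1 and Ifi213) have both readouts lower, of which Ifi213 alone does with scaling by gene-start peaks.

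Set side by side with scaling over all peaks, the transcript and the peak over the start both passed in the same direction for 4 of 22 called genes with Oxyrase against lactate (Irf7, Dhx58, Ifit1 and Ifi213). For the other 18 the peak did not pass. With scaling by gene-start peaks only Ifi213 of these 4 remained, joined by Isg20, and Ifi203 had a higher peak and a lower transcript. The Dhx58 peak went from -0.37 ± 0.14 (adjusted p = 0.0422) to -0.27 (adjusted p = 0.225), and the call was lost without lactate 2, lactate 3, Oxyrase 2 or Oxyrase 3, with adjusted p up to 0.23. Against NaCl the same held for 3 of 24 genes (Irf9, Bst2 and Ifi213), with Ifi203 in opposite directions. Of these Irf9 and Ifi203 remained with the other scaling, while the peaks of Bst2 (-0.17, adjusted p = 0.0683) and Ifi213 lost their calls; Ifih1 then had both in the same direction, and Eif2ak2, Trim30a, Usp18 and Parp14 in opposite directions. Against pyruvate 4 of 15 genes had both in the same direction (Ifih1, Isg20, Bst2 and Ifi213) and 3 in opposite directions (Stat2, Isg15 and Ifi203). There the other scaling kept 5 of the 7, without Ifi213 and Stat2 (-0.03, adjusted p = 0.762), and added Ddx58 and Zbp1 in the same direction. In pyruvate against lactate none of the 10 called transcripts had a called peak, and with the other scaling 3 had one (Eif2ak2 in the same direction, Ifih1 and Ifi203 in opposite directions). No share over all genes is given for transcripts and peaks called together. For scale, with scaling over all peaks 20.5% of gene-start peaks were lower and 5.55% higher with Oxyrase against lactate. These shares were 41.4% and 9.32% against NaCl, 39.8% and 9.85% against pyruvate, and 2.22% and 18.2% in pyruvate against lactate. The number of the 37 peaks called with Oxyrase against lactate was 3 without lactate 2 and 4 without Oxyrase 2, and in pyruvate against lactate it was 1 without pyruvate 1, pyruvate 2, lactate 2 or lactate 3 and 2 without pyruvate 3.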

How the data were processed

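Transcripts came from poly(A) RNA, and the deposited RNA values are estimated counts per gene. The submitters' processing notes list Bowtie2 2.2.0 and RSEM 1.2.12. For ATAC-seq the authors deposited counts of reads over 75802 mm10 peaks, which per the file headers leave out duplicate reads and those of mitochondria. Of the non-zero RNA values 99.24% were whole within 1e-09. A value above 1 that was not whole occurred in 460 genes, of which 448 were at 0 throughout 1 replicate number, a sign of an earlier adjustment by replicate; its method is not given in the sources used here.

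RNA values were rounded. Each assay was fitted over all 12 libraries with edgeR 4.0.16 in R 4.3.3 (filterByExpr, TMM, quasi-likelihood test, 8 residual degrees of freedom, no replicate term). Benjamini-Hochberg adjustment ran over the 14749 genes or 75802 peaks tested, with 0.05 as threshold. SE were taken as log2 fold change over the root of the F statistic. The pipeline was tested on simulated data. Symbols were matched for 55141 of 55401 identifiers, and gene positions, starts and promoters came from RefSeq tables of GRCm38.p6. CPM used TMM-scaled totals and are not per length, so levels are not compared between genes. Values in each library are given for the 4 called genes of largest change per direction and comparison, for Irf7, Irf9, Stat2, Isg15 and Ifit1, and, chosen after its values were seen, for Oas3; the rest of the 32 are given by difference or count. From the other lists up to 4 called genes per comparison are named, plus Irf1 and Ifnar1; 1 further gene is not reported here. The genes and lists were chosen with earlier results of these data known, and the comparison of lactate with Oxyrase and pyruvate was added after the values were seen. Alternatives changed scaling, filter, tool (DESeq2 1.42.0), libraries in the model, replicate term and peak window, and left out each library in turn.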

Additional observations from a re-analysis of the deposited data

How the results depend on the processing

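No difference of a called gene changed sign under any alternative run. All alternatives kept 8 of 17 calls in pyruvate against NaCl, 1 of 5 in lactate against NaCl, 18 of 22 with Oxyrase against lactate, 8 of 10 in pyruvate against lactate, 22 of 25 with Oxyrase against NaCl and 11 of 15 with Oxyrase against pyruvate. Genes called lower, leaving out 1 library at a time, numbered 9 to 18 in pyruvate against NaCl (17 with all) and 1 to 5 in lactate against NaCl (5 with all). Genes called higher numbered 1 to 3 with Oxyrase against NaCl (2 with all) and 2 to 6 with Oxyrase against pyruvate (6 with all). Without a filter on low counts 12 genes were lower in lactate against NaCl and 4 were higher in pyruvate against lactate; the cause was not tested.

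Peaks called at the starts of the 32 genes, leaving out 1 library at a time, numbered 0 to 7 in lactate against NaCl (1 with all), 3 to 10 with Oxyrase against lactate (7 with all) and 1 to 3 in pyruvate against lactate (4 with all). In lactate against NaCl DESeq2 called 2, scaling by gene-start peaks 3 and a window of 5 kb 2. With Oxyrase against lactate a model of only the 2 groups called 11. Scaling by gene-start peaks called 11 in pyruvate against lactate and 19 with Oxyrase against pyruvate. The 5 kb window, which holds 61 peaks in place of 37, called 12 with Oxyrase against lactate, 21 against NaCl and 21 against pyruvate. Scaling by gene-start peaks also moved the calls over all peaks in lactate against NaCl from 856 higher and 4001 lower to 3670 and 2102, and the median of all peaks there from 0.03 to 0.14, with Oxyrase against NaCl from 16309 and 14576 to 28503 and 7243, with Oxyrase against pyruvate from 16348 and 13558 to 29576 and 6892, and in pyruvate against lactate from 5184 and 3620 to 3129 and 8777.

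The labels number the libraries 1 to 3 in each group, without saying what a number marks. Deviations of same-numbered RNA libraries correlated at -0.21 to -0.079, a check that says nothing of pairing where values were adjusted by replicate number. Those of ATAC libraries correlated at -0.15 to 0.17 (median 0.061, against -0.030 for other pairs), with 6 of 18 above 0.1, so the libraries were not treated as paired. With the replicate number as a block, lactate against NaCl had 3 lower genes and 2 called peaks, and Oxyrase against lactate 12 called peaks. Over all peaks in pyruvate against NaCl the block called 1, lower. The block left 15 lower genes in pyruvate against NaCl and 18 lower and 3 higher with Oxyrase against lactate. With the block calls were lost for Irf9 and Mx2 in pyruvate against NaCl, Ifih1 and Parp14 in lactate against NaCl, Xaf1 with Oxyrase against lactate, Ifi35 against NaCl and Stat2 against pyruvate. In all, 171 counts stayed within 1.5 times and 40 did not; of the values of named genes 429 kept their side of the threshold and 44 lost it. Depth limits the scarce genes: 5 of the 32 had under 10 counts in at least 1 library.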
